A study of Homo sapiens with 8 samples.

Results

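The response of the tet-SLC7A2 line to doxycycline (dox) was described from its 4 libraries, out of 8 in the series, by setting the 2 dox libraries against the 2 no dox libraries and treating libraries with the same replicate number as a pair. All 4 came from U937 SLC19A1-/-, a human monocytic cell line in which the SLC19A1 gene had been disrupted, carrying a tetracycline-inducible, Flag-tagged human SLC7A2. The no dox group received no treatment, and the dox group received 1 µg/mL doxycycline for 24 h. The other 4 libraries came from a sister line of the same SLC19A1-/- background with tet-SLC7A1, treated the same way, and enter the shared estimate of spread and tests of a difference, and some of their values are given for comparison. Poly(A) RNA was sequenced, and the deposited level of each gene is an estimated (expected) count. The labels name 1 line for each transporter and do not say whether replicates came from separate cultures, so p-values measure only the spread between these libraries, which may be technical. No line lacking a construct was given doxycycline, so the drug and the induced transporter cannot be told apart.

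SLC7A2 encodes a plasma membrane transporter of the cationic amino acids arginine, lysine and ornithine, and SLC7A1 is the related carrier that most proliferating cells use. In a tet-inducible line, doxycycline binds an engineered regulator and turns on the transgene. When amino acids are scarce or proteins misfold, kinases that phosphorylate the initiation factor eIF2 raise translation of ATF4, a transcription factor that turns on genes of amino acid synthesis, amino acid import and tRNA charging. SLC19A1 carries reduced folates into the cell and is an importer of the immune messenger cGAMP as well.

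The construct entry, SLC7A2_Flag, was strongly induced in both pairs, but its level differed widely between the pairs before and after dox. In pair 1 it went from 0.57 to 265 CPM, the count relative to the library total after scaling by the trimmed mean of M values (TMM). In pair 2 it went from 9.46 to 4670.4 CPM. The expected counts behind these levels were 10 and 177 without dox and 4569 and 91235 with dox. The 2 dox libraries thus differed 17.6-fold from each other and the 2 no dox libraries 16.6-fold, while the induction within a pair was 464.7-fold in pair 1 and 493.6-fold in pair 2. In the paired edgeR fit the log2 change was 8.93 ± 0.12, with a Benjamini-Hochberg adjusted p of 0.00216. The ± value is the log2 change over the root of the test's F statistic, with the spread estimated over all 8 libraries. Without the replicate block the call was lost, with adjusted p of 1.0 in edgeR and 0.129 in DESeq2, and leaving out 1 library at a time from the unblocked fit moved the log2 change between 5.71 and 12.06. In dox library 2 the construct took 0.4947% of all counts. In bulk RNA, fewer expressing cells and less RNA per cell cannot be told apart. A separate entry for the Flag tag alone, Flag_Cterm, had 0 counts in both no dox libraries, 10 in dox library 1 and 207 in dox library 2.

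**Figure D1:**
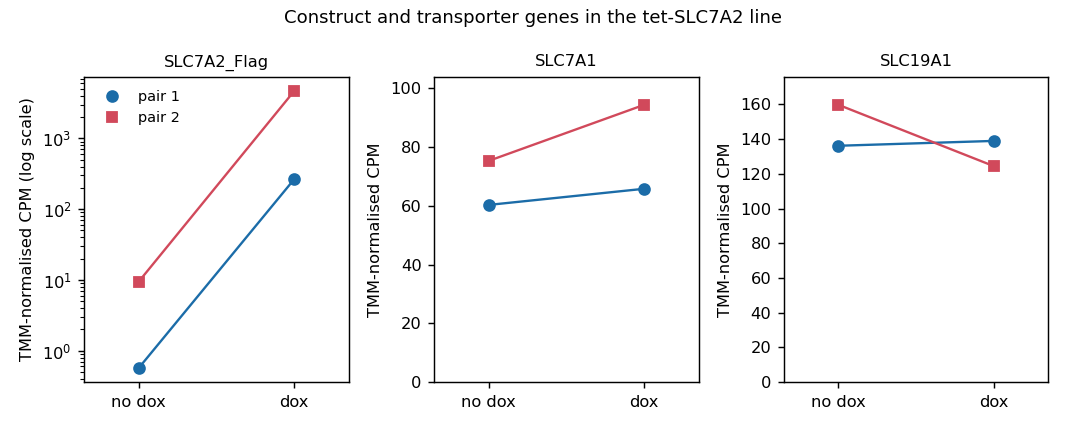
Level of the SLC7A2_Flag construct (log axis), SLC7A1 and SLC19A1 (linear axes from 0) in TMM-normalised CPM for each library, with lines joining the libraries of a pair. The construct goes from 0.57 to 265 CPM in pair 1 and from 9.46 to 4670.4 CPM in pair 2, nearly parallel lines at different heights.

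Endogenous SLC7A2 (chromosome 8) was listed at 0 in all 4 libraries, also where the construct entry held many reads. SLC7A1 (chromosome 13, 29509414 to 29595688 in GRCh38.p14) was 60.3 and 75.3 CPM without dox and 65.8 and 94.4 CPM with dox. Its groups overlapped, and its log2 differences were 0.12 in pair 1 and 0.32 in pair 2 (edgeR adjusted p = 0.924). SLC19A1, the disrupted gene, still gave 136.2 and 159.8 CPM without dox and 139 and 124.4 CPM with dox. Which bases of SLC19A1 were removed is not stated, and its RNA level therefore does not check the genotype.

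The 8 libraries held 17309132 to 18441833 expected counts, so that 3 counts corresponded to 0.163 to 0.173 CPM. Of 11 markers of monocytic cells, all 11 were found, and their summed level in the tet-SLC7A2 line was 3224 and 2603 CPM without dox and 3172 and 2268 CPM with dox. Of 4 B cell markers 3 were listed, summing to 22.3 and 18.4 CPM without dox and 22.1 and 18.2 CPM with dox, mostly CD79A, and MS4A1 was at 0. Of 4 T cell markers 2 were listed, at most 0.23 CPM in sum, with CD3E and TRAC at 0, and of 4 epithelial markers 3 were listed, at most 0.86 CPM in sum, with KRT14 at 0. Same-numbered libraries of the tet-SLC7A2 line deviated together from their group means (r = 0.58 across 11573 genes). On the first principal component, which held 45.5% of the variance, the number 2 libraries of this line lay at 31.03 without dox and 41 with dox, and the other 6 libraries lay between −30.37 and −5.04.

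Across the transcriptome no Entrez gene passed the paired edgeR test. Of 17503 entries tested, 1 was called higher with dox (0.00571%), and that entry was SLC7A2_Flag. None was called lower (0.0%), and 0 of 11573 Entrez genes passed (0.0%), with a lowest adjusted p of 0.924. At an unadjusted p under 0.05 the same edgeR fit held 619 entries (3.54%). DESeq2 with the same pairing called 27 entries, 15 higher (0.0874%) and 12 lower (0.0699%), of which 10 were Entrez genes (0.0873% of those with a DESeq2 adjusted p). On simulated data with the same 4 pairs, the paired edgeR fit over 17503 entries recovered 13 of 50 genes changed by 0.5 on the log2 scale, 37 of 50 changed by 1 and 48 of 50 changed by 2, with 7 false calls. Paired DESeq2 recovered 16, 38 and 48 of 50 at these sizes with 26 false calls, so its real calls may include false ones. Both fits also held 50 genes changed by 3, and every changed gene had a mean CPM of at least 5. So many true changes loosen the adjusted threshold, and neither recovery nor the number of false calls carries over to the real libraries. In the real edgeR fit IFT80 and TASOR, at log2 changes of 3.74 and 0.97, had an adjusted p of 0.924. Fitted changes of this size can thus fail its adjusted threshold, and whether these changes are real is not known.

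The differences of the 2 pairs were weakly correlated across genes. Pair differences were taken as log2(TMM CPM + 0.5) of dox minus no dox, a scale that understates the change of low genes. Of 11573 Entrez genes, 2913 were higher with dox in both pairs (25.2%), 3062 were lower in both (26.5%), and 5568 moved in opposite directions (48.1%). The correlation of pair 1 with pair 2 across these genes was r = 0.069 (Spearman 0.037), given as a description because genes share their libraries. Pair 2 was the more spread, with 1501 genes at an absolute difference of at least 0.5 against 640 in pair 1. A difference of at least 0.3 in the same direction in both pairs was seen for 260 genes higher (2.25%) and 177 lower (1.53%), while 373 had such differences in opposite directions (3.22%). With the deposited TPM the same counts were 239 higher and 91 lower, so the higher share went from 59.5% to 72.4%. TPM also moved the median of all genes in pair 2 from 0.00 to 0.10. Both dox libraries lay above both no dox libraries for 998 genes (8.62%) and below both for 1081 (9.34%).

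**Figure D2:**
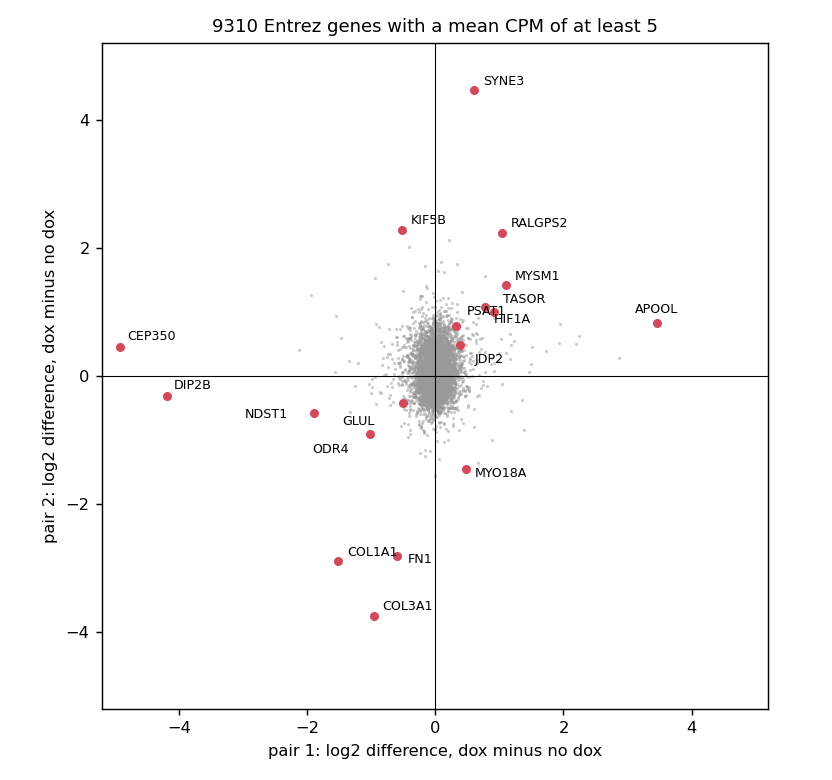
Log2 difference, dox minus no dox, in pair 1 (x axis) and pair 2 (y axis) for 9310 Entrez genes with a mean CPM of at least 5; red points are named genes. The cloud has no slope (r = 0.069) and is taller than wide, and genes such as TASOR and COL1A1 lie away from 0 in both pairs while CEP350 and DIP2B lie far from 0 in pair 1 and near it in pair 2.

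Pair 2 differences moved with gene length. Among genes with a mean CPM of at least 5, the median difference of pair 2 ran from −0.12 in the shortest of 5 equal classes (up to 1699 bases) over −0.07, −0.01 and 0.08 to 0.14 in the longest (from 4969 bases). In pair 1 the corresponding medians lay between −0.03 and 0.01. The pairs of the tet-SLC7A1 line ran in opposite directions, from −0.08 to 0.08 in pair 1 and from 0.12 to −0.08 in pair 2. Weighted by counts, the mean gene length was 2630 and 2697 bases in the no dox libraries and 2648 and 2805 bases in the dox libraries, so dox library 2 stood highest. Gene lists with many short or long members are therefore given below also after subtracting from each gene the median of its own length class, a step added after the data were seen.

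**Figure D3:**
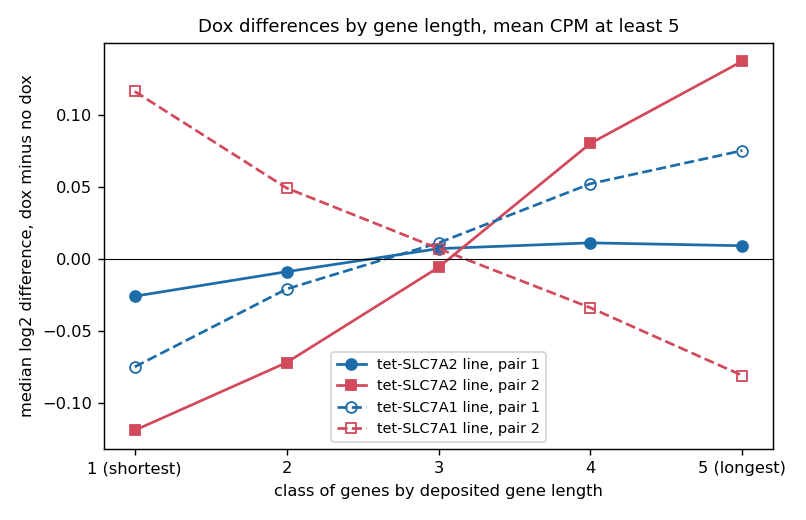
Median log2 difference, dox minus no dox, by class of genes sorted on deposited gene length (5 equal classes), for both pairs of the tet-SLC7A2 line (filled) and of the tet-SLC7A1 line (open). In pair 2 of the tet-SLC7A2 line the median goes from −0.12 to 0.14, and in pair 1 it stays between −0.03 and 0.01.

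Genes of the ATF4 amino acid response were more often higher with dox in both pairs than genes of any other list with at least 8 members kept. Of 30 members kept by the filter on low counts, 21 were higher in both pairs and 1 was lower in both, and the medians were 0.12 in pair 1 and 0.30 in pair 2, against −0.005 and 0.00 over all genes. In 9 members every dox library lay above every no dox library (8.62% of all genes), and in 1 every dox library lay below (9.34%). None passed edgeR's adjusted test, and 6 had an unadjusted edgeR p under 0.05, against 3.54% of all entries. Taken alone, pair 1 had 26 of 30 members higher (48.5% of all genes) and pair 2 had 24 (50.1% of all genes). After subtraction of the length medians, 22 of 28 were higher in both pairs, with medians of 0.13 and 0.33.

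ATF4 binds DNA as a dimer with C/EBP proteins at composite sites, and the letters TGATGNAAN were searched on both strands of RefSeq promoters (250 bases before to 50 after the start, GRCh38.p14). They stood in 3.61% of 35116 promoters and in any promoter of 7 of the 25 list members that had one, against 2.78% of 9564 kept genes. Those 7 were ASNS, ATF3, CEBPG, CHAC1, JDP2, SLC1A5 and SLC3A2, and 6 of them were higher with dox in both pairs. In the whole list 21 of 30 were, against 25.2% of all genes. The JDP2 and ASNS promoters are shown as examples of members that hold a match and were higher with dox without overlap, with the matched letters in capitals. The JDP2 stretch is chr14:75427772-75428071 on the plus strand, and the ASNS stretch is chr7:97872359-97872658 on the minus strand.
JDP2: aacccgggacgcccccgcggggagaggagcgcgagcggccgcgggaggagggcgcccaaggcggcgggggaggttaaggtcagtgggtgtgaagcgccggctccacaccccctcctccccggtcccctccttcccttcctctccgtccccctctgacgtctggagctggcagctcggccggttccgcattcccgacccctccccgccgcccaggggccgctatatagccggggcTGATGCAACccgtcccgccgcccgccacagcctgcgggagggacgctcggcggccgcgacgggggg
ASNS: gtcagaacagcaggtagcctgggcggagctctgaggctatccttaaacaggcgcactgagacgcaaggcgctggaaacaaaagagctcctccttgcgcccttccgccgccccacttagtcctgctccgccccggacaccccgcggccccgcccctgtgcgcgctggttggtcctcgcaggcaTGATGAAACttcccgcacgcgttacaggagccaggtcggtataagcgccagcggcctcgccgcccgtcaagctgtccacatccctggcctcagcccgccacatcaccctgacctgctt
A match is a description of the letters and not a bound site. PSAT1, the member called by DESeq2, had no match in its window.

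JDP2, a transcription factor that dimerises with AP-1 and ATF proteins, was 45.6 and 41.2 CPM without dox and 59.8 and 57.3 CPM with dox. Both dox libraries lay above both no dox libraries, with log2 differences of 0.39 and 0.47. PSAT1, an enzyme of serine synthesis, was 152.8 and 172.7 CPM without dox and 191.7 and 295.7 CPM with dox. Its differences were 0.33 and 0.77, and DESeq2 with pairing gave a log2 change of 0.55 ± 0.14 (SE) and an adjusted p of 0.0378 where edgeR gave 0.924. SESN2, a leucine-sensing inhibitor of mTORC1, was 22.5 and 23.4 CPM without dox and 26.9 and 32.9 CPM with dox. ADM2, a secreted peptide gene, was 11.6 and 10.2 CPM without dox and 15.9 and 16.1 CPM with dox. ASNS, which makes asparagine, was 26.3 and 21.1 CPM without dox and 30.2 and 38.9 CPM with dox. In these genes too the groups did not overlap.

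Regulators within the list did not share a direction or a size. ATF4 itself was 517.8 and 566.9 CPM without dox and 563.6 and 582.9 CPM with dox, with overlapping groups. DDIT3, a partner of C/EBP proteins in stress responses, was 14.3 and 12.7 CPM without dox and 15.9 and 15.1 CPM with dox. TRIB3, a pseudokinase that restrains ATF4, had differences of 0.12 and −0.01. DDIT4, an mTORC1 inhibitor, went in opposite directions, from 120.5 to 93.2 CPM in pair 1 and from 46.6 to 88 CPM in pair 2. PPP1R15A, which directs dephosphorylation of eIF2, was the 1 member lower in both pairs, with differences of −0.08 and −0.18.

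**Figure D4:**
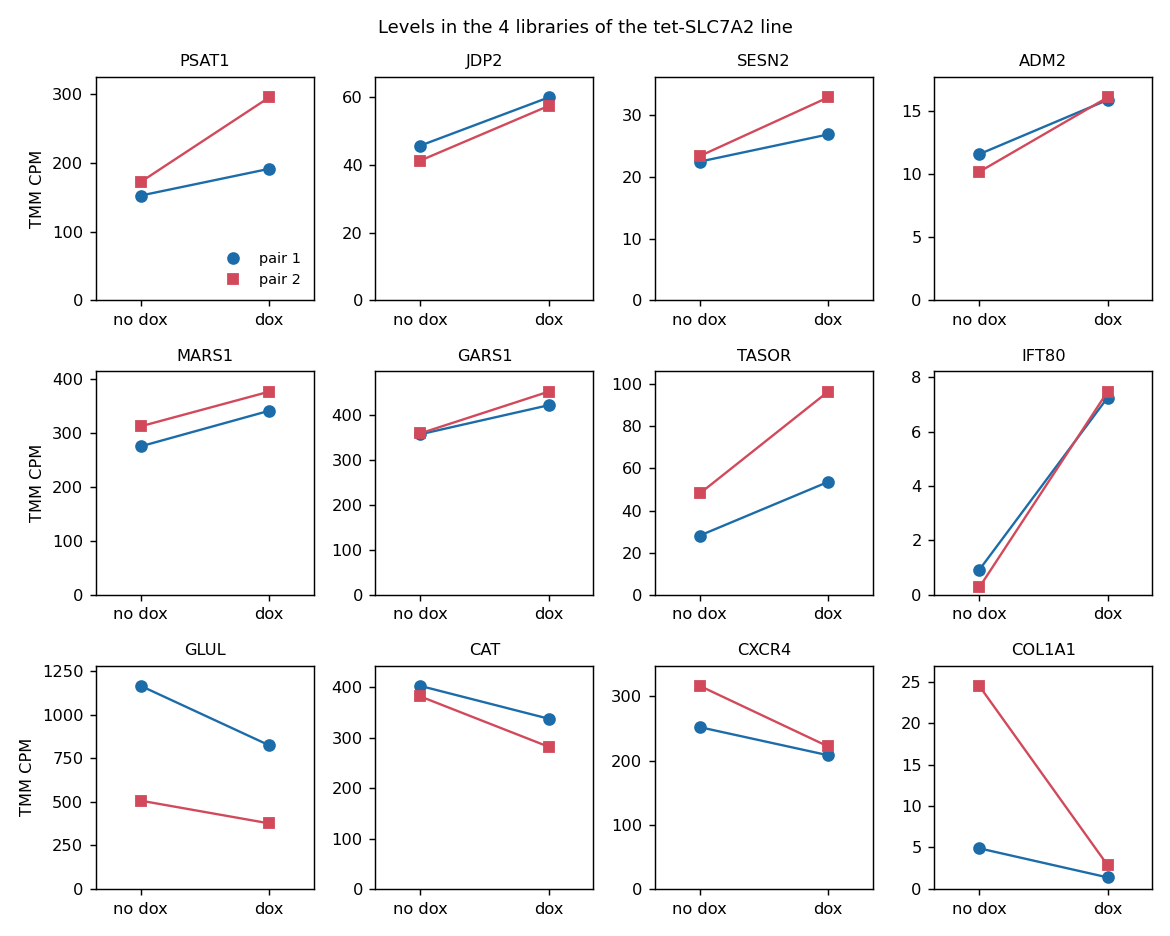
TMM-normalised CPM of 12 named genes in the 4 libraries of the tet-SLC7A2 line, each panel from 0, with lines joining the libraries of a pair. PSAT1, JDP2, SESN2, ADM2, MARS1, GARS1, TASOR and IFT80 are higher with dox in both pairs, and GLUL, CAT, CXCR4 and COL1A1 are lower in both.

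Cytosolic tRNA synthetases, which charge tRNAs with amino acids, lay in the same direction by smaller amounts. Of 20 members, 12 were higher in both pairs and 2 lower, and the medians were 0.10 and 0.13. With no overlap of the groups 8 were higher, against 8.62% of all genes. MARS1, for methionine, was 274.7 and 311.8 CPM without dox and 340.5 and 375.9 CPM with dox, with differences of 0.31 and 0.27. AARS1, for alanine, was 272.1 and 235.2 CPM without dox and 330.1 and 279.6 CPM with dox. GARS1, for glycine, was 357.3 and 359.3 CPM without dox and 422 and 452.2 CPM with dox. CARS1, for cysteine, was 105.9 and 103.9 CPM without dox and 120.9 and 137.3 CPM with dox. These 4 had unadjusted edgeR p values from 0.0103 to 0.0214 and adjusted p of 0.924, and RARS1, for arginine, was lower in both pairs at −0.12 and −0.12. In the tet-SLC7A1 line, which shares no library with this comparison, MARS1 differences were 0.38 and 0.30 and the list medians 0.10 and 0.10, and the ATF4 list medians there were 0.25 and 0.16.

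Genes of amino acid transport and of arginine use differed less between dox and no dox. Of 22 transporter genes, 8 were higher in both pairs and 2 lower, with medians of 0.09 and 0.02. SLC7A11, the cystine importer, was 4.85 and 5.56 CPM without dox and 5.39 and 11.7 CPM with dox. SLC3A2, the heavy chain that pairs with SLC7A5 and SLC7A11, was 243.4 and 291.8 CPM without dox and 278.7 and 317.9 CPM with dox. SLC7A6, which exchanges cationic for neutral amino acids, had differences of 0.58 in pair 1 and 0.00 in pair 2. Of 21 genes of arginine use and polyamines, 6 were higher in both pairs and 6 lower. ASS1, which rebuilds arginine from citrulline, was 339.7 and 250.6 CPM without dox and 377.3 and 274.6 CPM with dox. SAT1, which acetylates polyamines for export, was 41.3 and 38.2 CPM without dox and 31.2 and 34.5 CPM with dox. ODC1, the first enzyme of polyamine synthesis, had differences of 0.10 and 0.10. Of 34 genes of mTORC1 amino acid sensing, 6 were higher in both pairs and 10 lower, and of 9 arginine methyltransferases 1 was higher and 3 were lower.

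Of 17 genes of glutamine, glutamate and proline metabolism, 7 were higher in both pairs and 3 lower. GLUL, glutamine synthetase, was 1166 and 507 CPM without dox and 825 and 376 CPM with dox. It was lower in both pairs by like amounts (−0.50 and −0.43) although the groups overlapped, since pair 1 had the higher level with and without dox. DESeq2 with pairing gave a log2 change of −0.47 ± 0.11 (SE) and an adjusted p of 0.0229, where edgeR gave 0.924. In the tet-SLC7A1 line GLUL differences were −0.82 and −0.41. GOT1, a transaminase, was higher without overlap, at 21.8 and 24.5 CPM without dox and 26.4 and 33.3 CPM with dox.

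Interferon-stimulated genes were higher mainly in pair 2. Of 37 kept members, 20 were higher in both pairs and 6 lower, and 12 were higher without overlap (8.62% of all genes). The medians, however, were 0.06 in pair 1 and 0.36 in pair 2. Pair 1 alone had 21 members higher and pair 2 had 30. Only 18 members had a mean CPM of at least 5, and after subtraction of the length medians 8 of these were higher in both pairs, with medians of 0.01 and 0.24. PARP9, an interferon-induced ADP-ribosyltransferase, was 5.13 and 6.42 CPM without dox and 8.64 and 9.78 CPM with dox. OAS3, a sensor of double-stranded RNA, was 26.2 and 21.1 CPM without dox and 28.1 and 32.3 CPM with dox. BST2 and IFITM2, also in the list, were lower in both pairs, with differences of −0.12 and −0.23 for BST2. No member passed edgeR's adjusted test, and 1 had an unadjusted edgeR p under 0.05, against 3.54% of all entries.

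The interferon response element core GAAANNGAA, searched on both strands, stood in 8.11% of the same 35116 promoters and in a promoter of 20 of the 27 members that had one. Of those 20 genes, 12 were higher with dox in both pairs, against 20 of 37 in the whole list and 25.2% of all genes. The OAS3 promoter (chr12:112938224-112938523, plus strand) and a PARP9 promoter (chr3:122564251-122564550, minus strand) are shown for the members named above, with matches in capitals.
OAS3: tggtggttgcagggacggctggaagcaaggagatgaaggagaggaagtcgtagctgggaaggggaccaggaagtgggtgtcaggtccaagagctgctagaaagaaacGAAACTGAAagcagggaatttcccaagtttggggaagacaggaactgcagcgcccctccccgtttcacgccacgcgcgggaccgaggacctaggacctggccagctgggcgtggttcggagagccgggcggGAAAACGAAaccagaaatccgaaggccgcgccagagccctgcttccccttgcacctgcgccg
PARP9: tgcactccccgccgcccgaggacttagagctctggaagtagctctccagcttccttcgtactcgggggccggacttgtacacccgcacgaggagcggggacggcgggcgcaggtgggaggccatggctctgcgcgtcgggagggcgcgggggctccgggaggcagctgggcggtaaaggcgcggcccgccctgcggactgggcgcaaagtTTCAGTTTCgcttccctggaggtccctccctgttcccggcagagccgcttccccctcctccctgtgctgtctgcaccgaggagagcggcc
Matches were in 8.91% of the 9564 kept genes with a promoter in the table.

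Genes of cGAMP sensing and transport showed small differences. Of 19 members, 8 were higher in both pairs and 2 lower, with medians of 0.03 and 0.06. STING1, the cGAMP receptor, was 125.1 and 130.3 CPM without dox and 120.1 and 121.5 CPM with dox. LRRC8D, a subunit of volume-regulated channels, was 51.6 and 54.3 CPM without dox and 55.7 and 72 CPM with dox. CGAS, the enzyme that makes cGAMP, was 4.96 and 6.95 CPM without dox and 5.39 and 8.50 CPM with dox.

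On the TMM scale sterol and glycolytic genes were more often lower, mostly through pair 1, and iron genes were lower by a little more in pair 2. Of 24 genes of cholesterol synthesis and sterol handling, 12 were lower in both pairs and 1 higher, and the medians were −0.18 in pair 1 and −0.01 in pair 2. The pair 2 median turned to 0.12 with the deposited TPM and to 0.04 with library totals, and 5 members were then lower in both pairs on the TPM scale. The pair 2 median of all genes moved too, from 0.00 to 0.10 with TPM and to 0.05 with library totals. On the TPM scale the pair 1 median of all genes was 0.03. There 14.0% of all genes were lower in both pairs and 39.1% higher, which holds for the lists below as well. INSIG1, which retains the sterol sensor in the endoplasmic reticulum, was 176.3 and 172.5 CPM without dox and 136.3 and 158.2 CPM with dox. Of 31 genes of glycolysis and the hypoxia response, 15 were lower in both pairs and 1 higher, with medians of −0.21 and −0.04. The second of these turned to 0.005 with library totals and to 0.07 with TPM, where 8 members were lower in both pairs. PGK1, a glycolytic kinase, was 761 and 691.2 CPM without dox and 615.9 and 611 CPM with dox. PFKFB4, which sets a glycolytic activator, went from 100.6 to 42 CPM in pair 1 and from 16.2 to 14.5 CPM in pair 2. HIF1A, the transcription factor of the hypoxia response, went the other way, at 7.76 and 10.3 CPM without dox and 13.6 and 22.2 CPM with dox. Of 18 genes of iron handling and metallothioneins, 7 were lower in both pairs and 2 higher, with medians of −0.07 and −0.12. With TPM 6 were lower in both pairs and 5 higher, with medians of −0.04 and −0.006. The median averaged over both pairs turned from −0.042 to 0.034 with TPM. TFRC, the transferrin receptor, was lower in both pairs at −0.45 and −0.38, and its groups overlapped, with 133.4 and 241.8 CPM without dox and 97.6 and 185.4 CPM with dox.

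Most genes for cytosolic ribosomal and respiratory chain proteins were lower in both pairs, by small amounts. The amounts shrank with the length adjustment and with TPM, and TPM moved the medians of all genes up as well. Of 56 cytosolic ribosomal protein genes, 47 were lower in both pairs and 0 higher, with medians of −0.05 and −0.18. Only 2 of the 56 were lower without overlap of the groups, against 9.34% of all genes. RPL35, a subunit gene, was 849.5 and 736.4 CPM without dox and 774.9 and 614.4 CPM with dox. Of 50 nuclear-encoded respiratory chain genes, 38 were lower in both pairs and 4 higher, with medians of −0.04 and −0.12. Without overlap 16 of them were lower, against 9.34% of all genes. ATP5MC3, a subunit of ATP synthase, was 671 and 699 CPM without dox and 597 and 605.4 CPM with dox. Of 43 mitochondrial ribosomal protein genes, 21 were lower in both pairs and 5 higher. These are short genes: 45 of 56, 36 of 50 and 30 of 43 lay in the shortest length class. After subtraction of the length medians 28 of 56, 20 of 50 and 12 of 43 were lower in both pairs. The share over all genes with a mean CPM of at least 5 was then 25.3%. With TPM 25, 12 and 7 were lower in both pairs, against 14.0% of all genes, where TMM gave 26.5%. On the TPM scale the medians of pair 1 and pair 2 were −0.02 and −0.06 for cytosolic ribosomal genes. They were −0.006 and 0.01 for respiratory chain and 0.02 and 0.009 for mitochondrial ribosomal genes. Pair 2 thus changed sign in the respiratory chain list, and both pairs did in the mitochondrial ribosomal list. The medians of all genes on this scale were 0.03 and 0.10, above those of each of these lists in both pairs. In the tet-SLC7A1 line the cytosolic ribosomal medians were −0.18 and 0.14.

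Myeloid granule genes were lower chiefly in pair 2. Of 18 members, 11 were lower in both pairs and 0 higher, with medians of −0.04 and −0.42, and 12 were in the shortest length class. With the length medians subtracted, 10 of 17 were lower in both pairs, with medians of −0.03 and −0.38. SRGN, the granule proteoglycan, was 412.7 and 542.2 CPM without dox and 354.6 and 312.3 CPM with dox. RNASE3, an eosinophil granule ribonuclease, was 181.7 and 209.6 CPM without dox and 155.4 and 122 CPM with dox. LYZ, lysozyme, was 237.2 and 268 CPM without dox and 212.1 and 202.5 CPM with dox. In these 3 genes the dox libraries lay below the no dox libraries. CTSG, the protease cathepsin G, was 4721 without and 4772 CPM with dox in pair 1 and went from 3468 to 2385 CPM in pair 2. Of 32 monocyte surface and macrophage genes, 11 were higher in both pairs and 5 lower.

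Collagen and matrix genes were lower with dox in both pairs, at low levels. Of 16 fibroblast and matrix markers, 8 passed the filter, 7 of them lower in both pairs, with medians of −0.61 and −2.85. COL1A1, the main fibrillar collagen chain, was 4.90 and 24.5 CPM without dox and 1.39 and 2.87 CPM with dox. DESeq2 with pairing gave COL1A1 a log2 change of −2.51 ± 0.48 (SE) and an adjusted p of 0.000562, where edgeR gave 0.924. COL3A1 was 2.51 and 22 CPM without dox and 1.04 and 1.18 CPM with dox. FN1, fibronectin, was 2.79 and 23.1 CPM without dox and 1.68 and 2.87 CPM with dox. No dox library 2 was the high one in all 3 genes. The summed level of the 7 fibroblast markers was 61.3 CPM there and between 3.43 and 9.58 CPM in the other 7 libraries of the series. POSTN was at 0 in both no dox libraries. The part of other cells in this result was not tested.

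The 10 Entrez genes called by paired DESeq2 comprised 4 higher and 6 lower with dox, and edgeR's adjusted p was 0.924 for each. TASOR, a subunit of the HUSH silencing complex (chromosome 3, 56620132 to 56683265 in GRCh38.p14), was 28.1 and 48.1 CPM without dox and 53.6 and 96.5 CPM with dox. Its differences were 0.92 and 1.00, a log2 change of 0.97 ± 0.16 (SE) with a DESeq2 adjusted p of 2.84e-06. IFT80, an intraflagellar transport protein, was 0.912 and 0.267 CPM without dox and 7.25 and 7.47 CPM with dox (DESeq2 adjusted p = 4.7e-07). The tet-SLC7A1 line held 3.31 to 7.83 CPM of IFT80 in all 4 libraries, so that the no dox libraries of the tet-SLC7A2 line were the low ones. RALGPS2, a Ral exchange factor, was 3.14 and 3.69 CPM without dox and 6.96 and 19.2 CPM with dox.

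Among the genes called lower by DESeq2, CAT, the peroxide-degrading catalase, was 403.1 and 382.2 CPM without dox and 338 and 282.3 CPM with dox (adjusted p = 0.0425). CXCR4, the chemokine receptor, was 252.2 and 316.5 CPM without dox and 208.4 and 222.1 CPM with dox (DESeq2 adjusted p = 0.032). Both genes had dox libraries below both no dox libraries, and in the tet-SLC7A1 line their differences were also negative in both pairs. TESMIN, a gene known from testis, was 5.36 and 1.23 CPM without dox, 0.174 CPM in dox library 1 and 0 in dox library 2, which allows up to 0.163 CPM. LOC102724594 was 128.9 and 207.2 CPM without dox and 92.4 and 162.7 CPM with dox. It is a near-identical copy of the splicing factor gene U2AF1, so the split of reads between the 2 entries is uncertain.

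By the smaller of both pair differences, at a mean CPM of at least 5, the 15 highest Entrez genes were mostly long and low. They were TASOR, RALGPS2, MYSM1, ARFGEF2, TNRC6A, ZC3H12D, APOOL, HIF1A, DBT, GNA13, SLC4A7, ZNF107, CUL5, HELLS and KLHL15. Of the 15, 12 lay in the longest length class, and their median length was 6180 bases against 2992 for all genes at that level. Their median level was 8.25 CPM against 35.6 CPM. MYSM1, a histone deubiquitinase, was 4.62 and 6.15 CPM without dox and 10.5 and 17.2 CPM with dox. TNRC6A, a subunit of the miRNA silencing complex, was 3.93 and 10.3 CPM without dox and 7.89 and 19.7 CPM with dox. In TNRC6A the groups overlapped because number 2 had the higher level in both groups. The last gene inside, KLHL15, had a smaller difference of 0.62, and the next outside, SYNE3, 0.61. Among all 111 genes at least 0.3 higher in both pairs at this level (1.19%), 52 were in the longest class and 2 in the shortest. The part of gene length in these counts was not tested.

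The 15 lowest genes by the same measure were COL1A1, ODR4, COL3A1, FN1, NDST1, CTIF, TARP, MTRNR2L1, GAB2, DHRS3, NFKB1, RIMKLB, TASL, GLUL and FKBP4. Of these, 6 lay in the longest length class and 2 in the shortest. NFKB1, the precursor of an NF-kB subunit, was 40.7 and 54.4 CPM without dox and 24.7 and 39.7 CPM with dox. In the tet-SLC7A1 line NFKB1 differences were 0.86 and 0.18. ODR4 was 7.47 and 6.63 CPM without dox and 3.42 and 3.28 CPM with dox. NDST1, a heparan sulphate enzyme, was 10.7 and 10.1 CPM without dox and 2.49 and 6.60 CPM with dox. FKBP4, a cochaperone of steroid receptors, closed the set at −0.43, and BMP8B was the next outside at −0.43. MTRNR2L1 resembles mitochondrial ribosomal RNA and TARP lies in the T cell receptor gamma locus, so reads of both may be split between entries. At least 0.3 lower in both pairs at this level were 51 genes (0.548%), 12 in the longest class and 11 in the shortest.

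Some genes differed widely between the pairs, in size or in direction. CEP350, a centrosomal protein, went from 14.6 CPM to 0 in pair 1 and from 15.6 to 21.6 CPM in pair 2. DIP2B went from 8.67 CPM to 0 in pair 1 and from 19.5 to 15.6 CPM in pair 2. SYNE3, a nuclear envelope protein, went from 7.18 to 11.2 CPM in pair 1 and from 0.16 to 14 CPM in pair 2. In each of these 1 library was at or near 0 while the other 3 lay between 7.18 and 21.6 CPM. KIF5B, a kinesin heavy chain, went from 6.44 to 4.35 CPM in pair 1 and from 9.52 to 48.1 CPM in pair 2. The mitotic motor CENPE went from 6.79 to 1.39 CPM in pair 1 and from 6.63 to 16.6 CPM in pair 2. In the opposite order, MYO18A, a myosin, went from 15.2 to 21.3 CPM in pair 1 and from 36.4 to 12.9 CPM in pair 2.

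On the TMM scale the G2/M, p53 and MYC lists split between the pairs. Endoplasmic reticulum and NF-kB genes were more often lower in both on that scale. G2/M genes had medians of −0.03 and 0.19, and p53 targets −0.001 and 0.24, the latter 0.01 and −0.003 over 13 genes once length medians were subtracted. Genes of MYC and ribosome biogenesis had 0.00 and −0.20. Of 30 genes of endoplasmic reticulum folding, 17 were lower in both pairs and 4 higher, and HSPA5, the main chaperone there, had differences of −0.11 and −0.11. With library totals the pair 2 median of this list turned from −0.05 to 0.00, and with TPM to 0.06. The pair 2 median of all genes was 0.05 and 0.10 on these scales. Of 22 NF-kB and cytokine genes, 9 were lower in both pairs and 2 higher. With library totals 7 were lower and 4 higher. With TPM 5 were lower and 4 higher, against 14.0% and 39.1% of all genes. CCL2, a monocyte chemokine, was 10.2 and 58.8 CPM without dox and 7.60 and 40.2 CPM with dox.

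**Figure D5:**
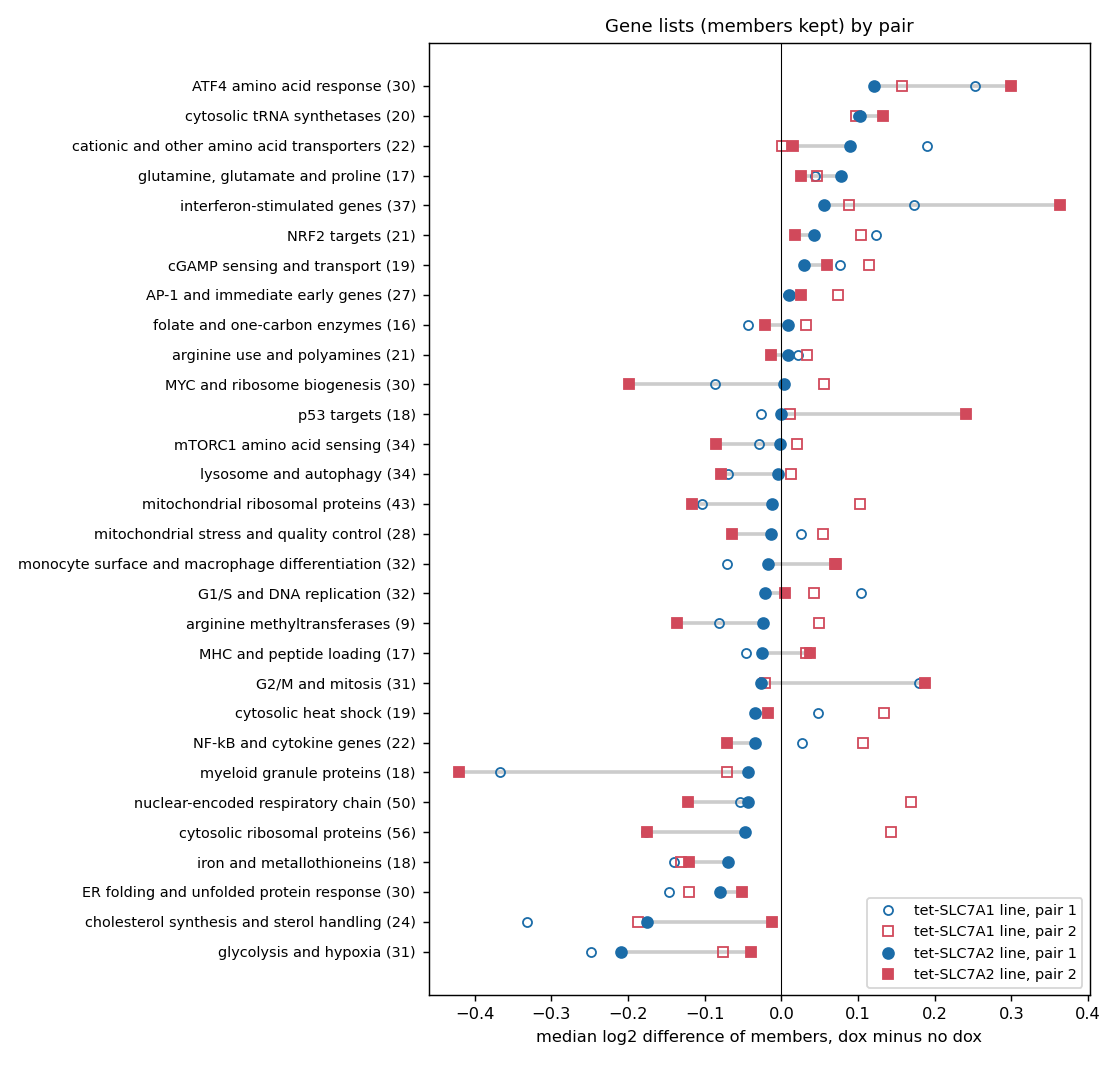
Median log2 difference, dox minus no dox, of gene lists with at least 8 members kept, sorted by pair 1 of the tet-SLC7A2 line (filled circles; pair 2, filled squares), with the tet-SLC7A1 line as open symbols. The matrix gene list (−0.61 and −2.85) is left out for scale. The ATF4 list and tRNA synthetases lie above 0 in all 4 pairs, as do the interferon list and several others. Interferon and granule genes split widely between the pairs of the tet-SLC7A2 line.

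The dox effect was tested for a difference from that in the tet-SLC7A1 line in the same fit. edgeR called 0 of 17503 entries higher and 0 lower (0.0% each), with 519 at an unadjusted p under 0.05 (2.97%). DESeq2 with pairing called 13 entries higher (0.0743%) and 8 lower (0.0457%), 4 of them Entrez genes (0.0346%): TASOR, IFT80, TESMIN and NFAT5. NFAT5, a tonicity-responsive transcription factor named after its values were seen, was 3.54 and 9.14 CPM without dox and 2.61 and 3.33 CPM with dox in the tet-SLC7A2 line. In the tet-SLC7A1 line NFAT5 went from 6.37 CPM to 0 in pair 1 and from 7.83 to 0.225 CPM in pair 2.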

How the data were processed

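RNA was measured in 8 libraries, 4 of the tet-SLC7A2 line. The authors deposited expected counts and TPM for each library, per the file headers, with a list of gene lengths. The submitters' processing notes name the build hg38 with RSEM 1.3.1 and Bowtie2 2.3.4.3, and also HISAT and the authors' DESeq2, without settings. RSEM-type counts can split reads between overlapping entries. Genes absent from a file were set to 0, and the expected counts deposited by the authors were rounded. The files list 15386 Entrez genes, 7264 assembled loci without a location and 3 added entries.

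Entries were filtered (filterByExpr, minimum count 10, minimum total 15), scaled by TMM and tested with edgeR 4.0.16 (quasi-likelihood, R 4.3.3) over all 8 libraries, with a block for each line and replicate number and a dox term for each line (2 residual degrees of freedom). P-values were adjusted by Benjamini-Hochberg over 17503 entries, with a threshold of 0.05. DESeq2 1.42.0 with the same block was an alternative, and the fits were tested on simulated data. Replicate numbers from the labels pair the libraries by the definition of the comparison. Deviations of same-numbered libraries correlated at r = 0.58 in this line and 0.47 in the other. With 2 against 2 libraries an exact permutation test cannot go below p = 0.333, so none was used. TPM deposited by the authors served only as an alternative scale.

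Named genes were the constructs and transporters, all entries with a symbol called by either tool, and the 15 highest and 15 lowest by the smaller pair difference. Added to these were the 8 with the largest contrast between pairs in each direction, and up to 4 members of each of 35 lists plus members that define a list by role. Assembled loci called by DESeq2 have no symbol and were not among the named genes. The comparison, lists and rules were chosen with earlier results of these data known. Coordinates and promoter sequences are RefSeq's (GRCh38.p14). Symbols were found for 11567 of 11573 kept Entrez genes. The interferon element core was shortened by 1 letter after a first search with the longer form, which matched 1 list member fewer.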

Additional observations from a re-analysis of the deposited data

Results flagged for a closer look

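In 3 named genes the dox effect differed between the lines by DESeq2's interaction test with pairing, and by edgeR's it did not pass (adjusted p of 1 for each). TASOR had a difference of 0.96 on the log2 scale (SE 0.22, DESeq2 adjusted p = 0.0153), from differences of 0.92 and 1.00 in the tet-SLC7A2 line and −0.24 and 0.22 in the tet-SLC7A1 line. IFT80 had a difference of 4.26 (SE 0.75, DESeq2 adjusted p = 8.9e-05), and its no dox libraries in the tet-SLC7A2 line, with expected counts of 15.8 and 4.98, were the lowest of the series. TESMIN had a fitted difference of -6.60 (SE 1.5, DESeq2 adjusted p = 0.0124), which is no bound because dox library 1 held 3.21 expected counts and dox library 2 held 0.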

How the results depend on the processing

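The paired edgeR count of 1 entry was also 1 with RLE factors, without the filter and with the tet-SLC7A2 libraries alone. It was 0 with no replicate block, 0 with the construct entries left out, 27 in DESeq2 with the replicate block and 10 in DESeq2 without it. Leaving out a pair from the paired fit left 1 pair of this line, fitted exactly, so the spread came from the tet-SLC7A1 line alone. There the construct entry held at most 1 count, so these fits cannot check the construct call. Leaving out single libraries from the unblocked fit gave 0 to 1 calls, and none was the construct, whose adjusted p was 0.648 to 1.0. Without the block the SLC7A2_Flag log2 change was 8.93 in edgeR (adjusted p = 1.0) and 8.94 in DESeq2 (adjusted p = 0.129), and leaving out single libraries or pairs gave 5.71, 8.03, 9.85 and 12.06, with 8.84 to 8.94 for pairs left out. The difference between lines had 0 calls in edgeR, 21 in DESeq2 with the block and 20 without it. Among named genes CENPE turned to 0.43 and L3HYPDH to 0.004 without the block. Of the named entries, 11 not called by paired edgeR passed under paired DESeq2, but such a call was itself a rule for naming. The cause of these shifts was not tested.

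Of genes at least 0.3 higher or lower in both pairs (260 and 177), a pseudocount of 2 left 130 and 73, a threshold of 0.2 gave 533 and 363, a threshold of 0.5 gave 83 and 53, a mean CPM of at least 5 left 111 and 51, and TPM gave 91 lower. List medians averaged over both pairs changed sign in 2 of 35 lists with library totals, 8 of 35 with TPM and 4 of 30 after subtraction of length medians. The medians of all genes in pair 1 and pair 2 moved as well, to 0.01 and 0.05 with library totals and 0.03 and 0.10 with TPM. Changes of 0.5 on the log2 scale were mostly below detection in the simulated data. In the real libraries, with 2 pairs that differ in construct level and spread, larger edgeR changes such as 3.74 for IFT80 did not pass either.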

Other observations

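Of the 27 entries called by paired DESeq2, 15 were assembled loci with no location or gene name in the sources used here, 9 higher and 6 lower with dox. In 4 of the 9 both no dox libraries had 0 counts. XLOC_012077 had 140 and 69.3 expected counts in the dox libraries and 0 in both no dox libraries, while the tet-SLC7A1 line held 11.4 and 5.33 CPM of it without dox. XLOC_019173 was the reverse, with 182 and 139 expected counts without dox and 2.55 and 0 with dox.

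The DESeq2 count without pairing was 10 entries, 8 of them assembled loci and 1 an Entrez gene, IFT80.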
